A study of Homo sapiens with 12 samples.

Results

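The calcineurin, calmodulin and CaMKII genes were followed in human cardiomyocytes exposed to endothelin-1, to sacubitrilat, or to both. The 9 genes were listed by symbol, with earlier results of these data known: RCAN1, RCAN2, PPP3CA, PPP3CB, PPP3R1, NFATC3, CAMK2D, CALM2 and CALM3. They were found among 78894 genes in the table, each at 1 row, and all 9 were tested with 11203 genes that passed a filter on low counts.

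Calcium entering a cardiomyocyte binds calmodulin, which then activates both the phosphatase calcineurin and the kinase CaMKII. Calcineurin strips phosphates from NFAT transcription factors, which move to the nucleus and switch on growth genes, among them the calcineurin inhibitor gene RCAN1. CaMKII phosphorylates calcium-handling proteins and class IIa histone deacetylases, which releases MEF2 factors. Endothelin-1 is a peptide that acts on Gq-coupled receptors upstream of this calcium signal, and both branches are known for their roles in hypertrophic growth of the heart.

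The cells were cardiomyocytes differentiated from WTC-mEGFP-ACTN2-cl85, which is 1 clone of an established human line of induced pluripotent stem cells. In all 4 groups they carried a heterozygous mEGFP tag on the C terminus of endogenous ACTN2. Vehicle cultures were labelled 16 uM DMSO, the endothelin-1 cultures received 10 nM of the peptide, and the sacubitrilat cultures received 16 µM of sacubitrilat, the active form of a neprilysin inhibitor. The fourth group received both compounds together, each at the same dose. Every exposure lasted 48 h, with 3 separate cultures per group, and the study's main comparisons set endothelin-1 against vehicle and against both.

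Library totals did not match between groups, and this touches every value below. The 6 single-compound libraries held 1268308 to 1953122 counts each, and the 6 libraries of vehicle or both held 80844 to 316932. Endothelin-1 against sacubitrilat (summed totals 1.09-fold apart) and both against vehicle (vehicle 1.49-fold above both) were therefore the comparisons between like totals. In the other 4 pairs the totals differed by 8.06-fold to 13.1-fold, so that treatment and library total cannot be told apart there. In the descriptions of the endothelin-1 and sacubitrilat libraries, a second line gives the opposite compound for all 6. Groups here follow the titles and treatment labels.

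All 12 cardiomyocyte markers were detected in each group, with summed levels of 22737 to 27992 CPM (the deposited level of a gene, its count scaled by the library total) in vehicle, 24472 to 25933 with endothelin-1, 17597 to 18411 with sacubitrilat and 24409 to 48460 with both. Fibroblast, smooth muscle and endoderm markers moved along the same split as the totals. The 7 fibroblast markers summed to 1732 to 4952 CPM in vehicle and 1936 to 4430 with both, against 6724 to 7588 with endothelin-1 and 6999 to 7310 with sacubitrilat. The 4 smooth muscle markers summed to 461 to 1985 CPM in vehicle, 871 to 2219 with both, 3472 to 3511 with endothelin-1 and 2697 to 2746 with sacubitrilat. The 7 endoderm and liver markers ran the other way, at 197 to 680.3 CPM in vehicle and 445 to 584 with both, against 54.4 to 83.5 and 48.5 to 59.4. The 5 epicardial markers summed to 42.4 to 48.2 CPM with endothelin-1 and 142 to 179 with sacubitrilat, against 93.8 to 110.4 in vehicle and 31.5 to 91.7 with both. Endothelial, pluripotent and neuronal lists stayed at or below 144 CPM in every library, and CDH5 was at 0 in vehicle, endothelin-1 and both. The part of these other cells in the results below was not tested. In such bulk samples, fewer cells of a type and less RNA per cell cannot be told apart.

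The calmodulin sequences are shown because CALM2 and CALM3 are separate genes for the same protein, so that their levels could be read as copies of each other. Their coding sequences (447 bases, GENCODE 29 on GRCh38) translate to the same 149 residues with 0 differences, yet they differ at 82 bases (81.7% identical). The first 120 coding bases follow, from base 1 of the start codon, with the 21 positions at which they differ in capitals.
CALM2: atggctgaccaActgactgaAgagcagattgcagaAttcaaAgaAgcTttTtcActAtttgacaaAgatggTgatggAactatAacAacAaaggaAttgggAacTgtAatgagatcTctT
CALM3: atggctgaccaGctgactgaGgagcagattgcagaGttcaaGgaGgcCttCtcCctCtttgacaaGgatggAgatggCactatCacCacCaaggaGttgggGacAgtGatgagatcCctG

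The libraries count transcript 3′ ends, where these genes differ as well. Of the 411 windows of 90 bases in the last 500 bases of the CALM2 transcript, 0 occur in another annotated gene, and of 822 in CALM3, 124 do (15.1%), in the antisense gene AC093503.2, which held 61 counts over all libraries against 2844 for CALM3. The same-strand gene AC073283.3 overlaps the last exon of CALM2, with 11 counts beside 3449 for CALM2. Deposited CALM2 counts were not whole in 8 of 12 libraries.

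The RCAN1 upstream regions are shown because RCAN1 is the reporter gene of the pathway and has several starts. RefSeq promoter windows were given for 6 of the 9 genes. RCAN1 had 6 of them on GRCh38.p14, and the 250 bases before each start were searched for the NFAT core GGAAA, or TTTCC on the other strand, which do not overlap each other. The internal start at base 34526822 of chromosome 21, used by transcripts RCAN1-207 and RCAN1-212, had 4 matches, beginning 234, 199, 169 and 64 bases before the start. The other 5 starts had 0 matches. A further coding transcript, RCAN1-202, begins upstream of the internal start, at base 34526963, and no window was given for it. The bases printed below for the internal start end directly before that of RCAN1-202. Of 35116 such windows in the table, 55.6% held at least 1 match, 1.87% held at least 4, and the median was 1. The parts of the 250 bases outside annotated exons are printed for the internal start (chr21:34526964-34527072, minus strand, 109 bases, 3 of the 4 matches in capitals, in an intron of RCAN1-201) and for the first start, of RCAN1-201 (chr21:34615143-34615363, minus strand, 221 bases, no match).
Internal start: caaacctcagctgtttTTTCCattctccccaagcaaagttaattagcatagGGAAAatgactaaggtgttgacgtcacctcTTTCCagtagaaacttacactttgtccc
First start: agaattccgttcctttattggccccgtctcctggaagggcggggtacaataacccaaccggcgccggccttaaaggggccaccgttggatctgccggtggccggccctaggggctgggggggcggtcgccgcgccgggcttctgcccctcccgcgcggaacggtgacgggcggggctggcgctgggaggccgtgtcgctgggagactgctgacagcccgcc

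A match describes letters and not a bound site. The counts could not be assigned to a start, since 9 of the 10 coding RCAN1 transcripts end within 50 bases of the same 3′ end, RCAN1-201 and RCAN1-207 included.

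**Figure D1:**
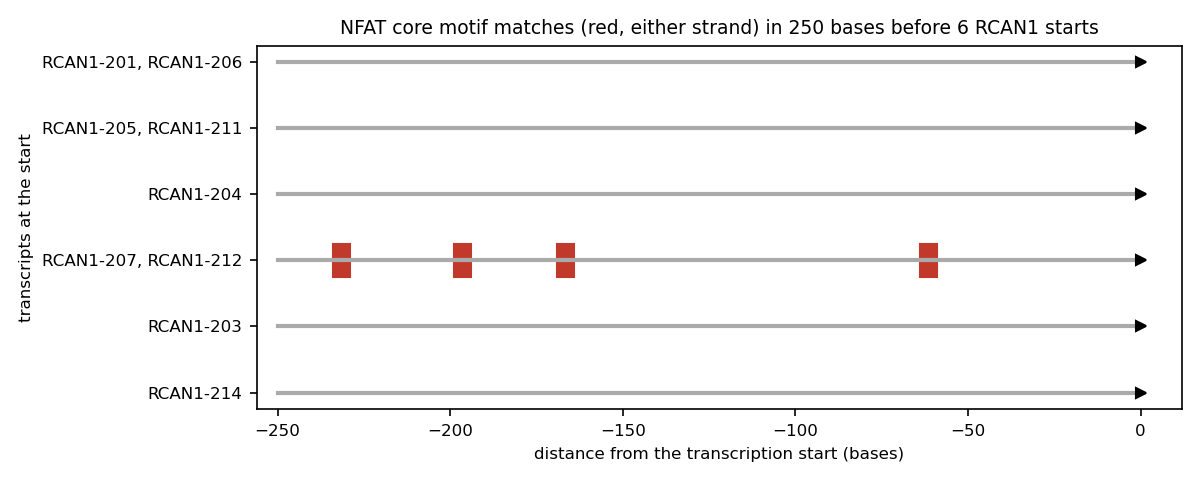
NFAT core matches (red blocks, either strand) in the 250 bases before each of 6 RCAN1 starts, plotted by distance from the start in bases, with the transcripts that begin there on the y axis. The internal start of RCAN1-207 and RCAN1-212 has 4 matches and the other 5 have 0.

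RCAN1 (ENSG00000159200, chromosome 21, 34513142 to 34615142, minus strand, GRCh38) encodes an inhibitor of calcineurin whose own transcription calcineurin induces. It stood at 83.6, 78.0 and 84.9 CPM in the 3 endothelin-1 libraries and at 59.1, 59.9 and 62.7 with sacubitrilat. In vehicle it stood at 31.6, 0 and 41.0 CPM, and with both at 34.4, 25.2 and 29.6. The endothelin-1 libraries were the highest of all, the sacubitrilat libraries came next without overlap, and vehicle and both lay lower and overlapped each other.

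Few counts stood behind the low groups. Vehicle held 10, 0 and 7 RCAN1 counts and both held 3, 4 and 4, against 115 to 149 with endothelin-1 and 76 to 122.5 with sacubitrilat. A count of 0 in that vehicle library allows up to 37.1 CPM (3 counts), which lies below all endothelin-1 values. The exact 95% interval of the library of both with 3 counts ran from 7.09 to 100.4 CPM and takes in all endothelin-1 and sacubitrilat values. Both limits cover counting error only. Group means were 24.2 ± 21.5, 82.2 ± 3.66, 60.6 ± 1.89 and 29.7 ± 4.59 CPM (SD, n = 3), in the order vehicle, endothelin-1, sacubitrilat and both. From high to low this was endothelin-1, sacubitrilat, both and vehicle, of which the last 2 did not differ beyond their spread.

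RCAN2 (ENSG00000172348, chromosome 6, 46220736 to 46491972, minus strand) encodes another member of this inhibitor family. It stood at 16.8, 24.4 and 19.2 CPM with endothelin-1 and at 19.1, 18.1 and 21.0 with sacubitrilat, groups that overlapped. Vehicle had 2, 0 and 1 counts (6.31, 0 and 5.86 CPM) and both had 0, 0 and 1 (0, 0 and 7.41 CPM). Every single-compound library lay above every low-total library in RCAN2. The filter asked for 12.6 CPM in 3 libraries, which RCAN2 met in 6 of 6 single-compound libraries and in 0 of the other 6, so that it was tested because it was high in those 2 groups.

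PPP3CA (ENSG00000138814, chromosome 4, 101023409 to 101348278, minus strand) and PPP3CB (ENSG00000107758, chromosome 10, 73436428 to 73496024, minus strand) encode alternative catalytic subunits of calcineurin. PPP3CA stood at 41.0, 86.6 and 41.0 CPM in vehicle, 47.1, 68.5 and 59.3 with endothelin-1, 67.6, 67.0 and 60.4 with sacubitrilat, and 68.7, 63.0 and 22.2 with both. All 4 groups of PPP3CA overlapped. PPP3CB stood at 15.8, 12.4 and 23.4 CPM in vehicle, 36.5, 36.6 and 37.8 with endothelin-1, 41.1, 29.2 and 37.4 with sacubitrilat, and 34.4, 25.2 and 7.41 with both. Its single-compound libraries all lay above vehicle, but 10 counts in vehicle and 8 with both stood behind those groups.

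PPP3R1 (ENSG00000221823, chromosome 2, 68178857 to 68256237, minus strand) encodes the calcium-binding regulatory subunit. It stood at 8.48 to 9.89 CPM with endothelin-1, 9.86 to 11.02 with sacubitrilat, 5.86 to 12.4 in vehicle and 9.45 to 22.9 with both. It met the filter in the 3 libraries of both, which held 1.5 to 2 counts each, and in 0 of the 6 deep ones. The filter read rounded counts, and replicate 2 of both met it only as 1.5 counts rounded to 2 (12.63 CPM against 12.62 needed). The overlapping same-strand gene AC017083.3 held 19.5 counts beside 103 for PPP3R1, so PPP3R1 was the most thinly measured of the 9.

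NFATC3 (ENSG00000072736, chromosome 16, 68084751 to 68229259, plus strand) encodes an NFAT factor that calcineurin dephosphorylates. It stood at 29.97, 43.3 and 29.3 CPM in vehicle, 24.4, 25.8 and 28.5 with endothelin-1, 26.1, 30.4 and 22.3 with sacubitrilat, and 11.5, 31.5 and 59.3 with both. The libraries of both spanned all other groups. Of its 411 windows of 90 bases at the 3′ end, 357 (86.9%) also lie in ESRP2 or AC020978.5 on the opposite strand, and AC020978.7 overlaps it on the same strand with 131 counts beside 282 for NFATC3. How strand entered the counting is not given in the sources used here. Reads of NFATC3 and these genes are therefore not surely separated.

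CAMK2D (ENSG00000145349, chromosome 4, 113451032 to 113761927, minus strand) encodes the delta form of CaMKII, the main form of the heart. It stood at 316, 307 and 353 CPM with endothelin-1, 278, 275 and 237 with sacubitrilat, 265, 161 and 169.9 in vehicle, and 103, 166 and 144 with both. The endothelin-1 libraries were again the highest without overlap, and vehicle reached into the range of sacubitrilat with 1 library. CAMK2D had 2991 counts in all, with 9 to 26.33 in each library of both.

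CALM2 (ENSG00000143933, chromosome 2, 47160082 to 47176601, minus strand) and CALM3 (ENSG00000160014, chromosome 19, 46601074 to 46610793, plus strand) encode calmodulin, the calcium sensor of both branches. CALM2 stood at 169.8, 346 and 253 CPM in vehicle, 313, 315 and 298 with endothelin-1, 339, 373 and 409 with sacubitrilat, and 120.3, 148 and 163 with both. CALM3 stood at 196, 124 and 169.9 CPM in vehicle, 254, 252 and 255 with endothelin-1, 290.1, 319 and 323 with sacubitrilat, and 91.7, 151 and 133 with both. In both genes the sacubitrilat libraries were highest and those of both were lowest, except that CALM3 overlapped between both and vehicle and CALM2 between vehicle and sacubitrilat.

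**Figure D2:**
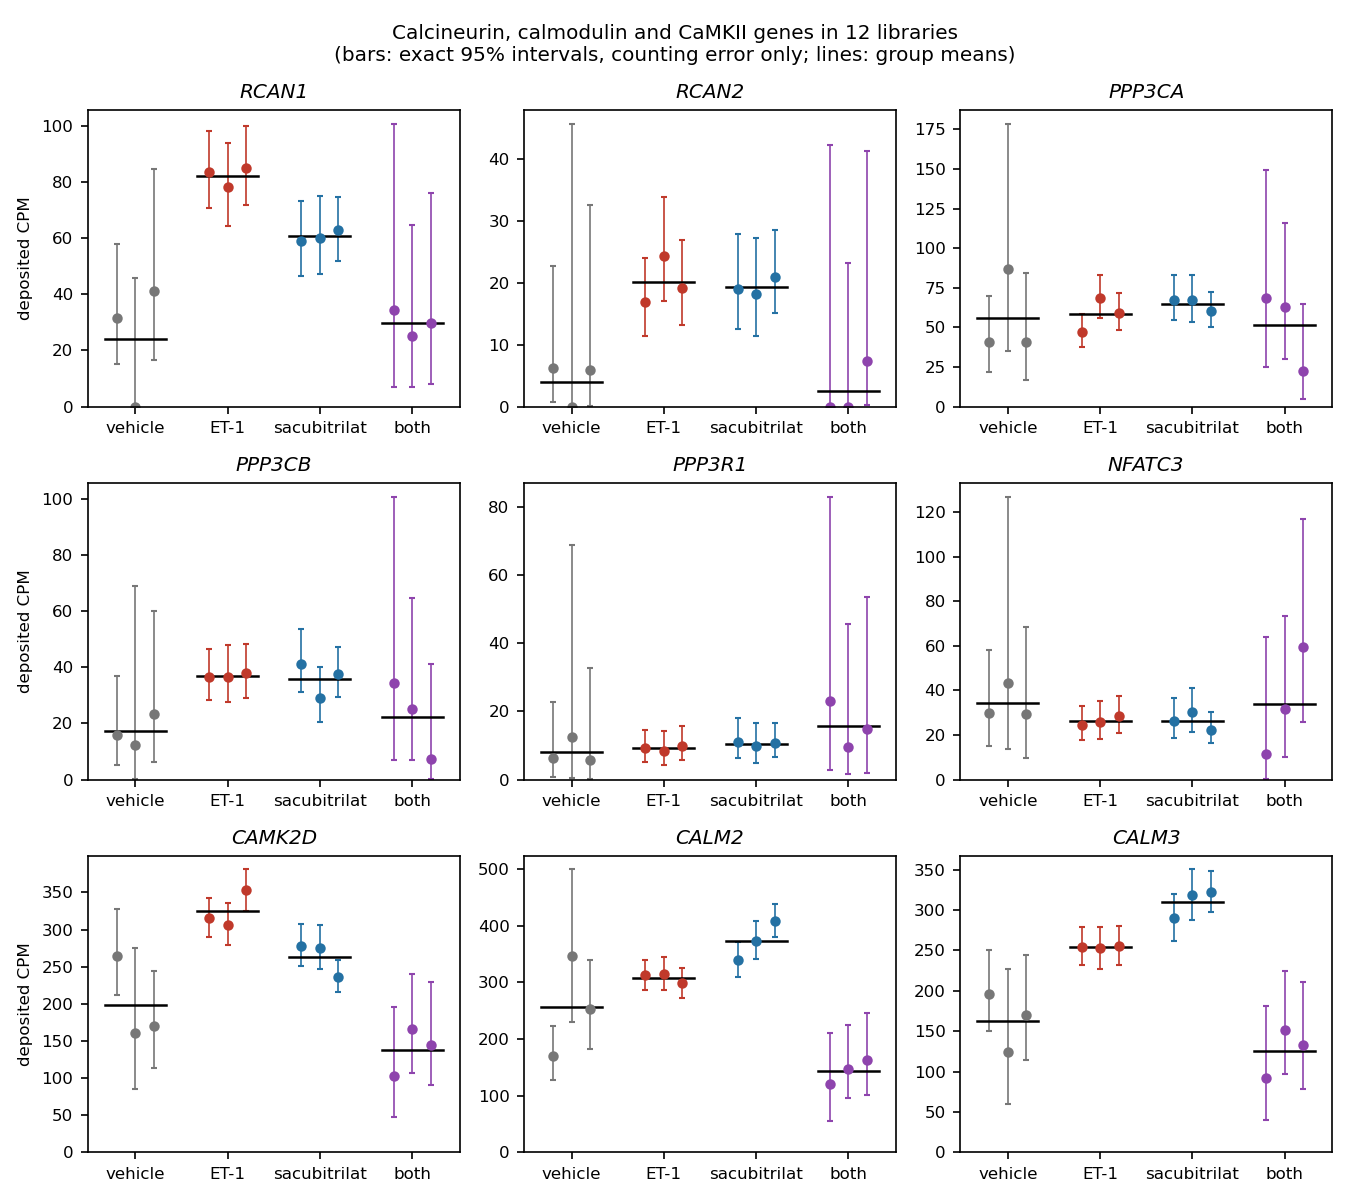
Deposited CPM of the 9 genes in each of 12 libraries (points, 3 per group), with exact 95% counting intervals as bars and group means as black lines. RCAN1 is highest in the endothelin-1 libraries (78.0 to 84.9 CPM), and the bars of vehicle and both are wide in every gene.

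Level and library total ran together in several of the genes. Over the 12 libraries, log2 CPM had a Pearson r with the log2 total of 0.94 for CALM3, 0.91 for RCAN2, 0.87 for CAMK2D, 0.77 for CALM2, 0.72 for RCAN1 and 0.71 for PPP3CB. It was 0.25 for PPP3CA, -0.17 for NFATC3 and -0.37 for PPP3R1. These are descriptions of libraries that fall into a deep and a shallow set and that share group and depth. Within the deep set, RCAN1 and CAMK2D separated endothelin-1 from sacubitrilat where totals overlapped.

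**Figure D3:**
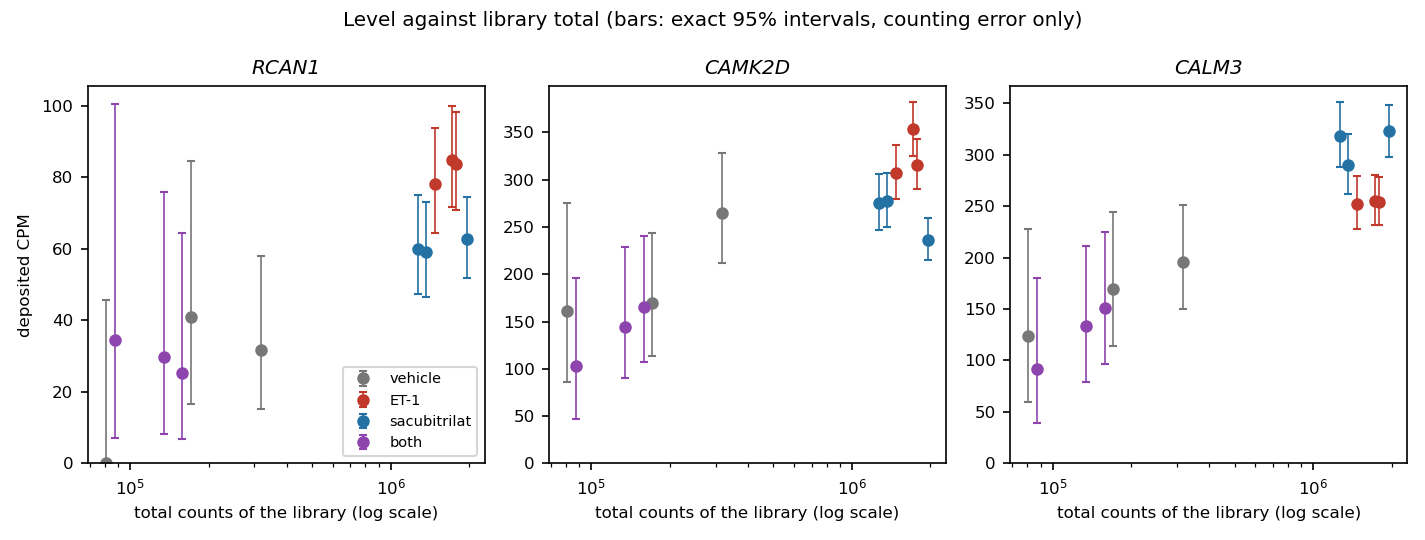
CPM of RCAN1, CAMK2D and CALM3 (y axis, with exact 95% counting intervals) against the total counts of each library (x axis, log scale), coloured by group. The 6 shallow libraries sit at 80844 to 316932 counts and the 6 deep ones at 1268308 to 1953122, and RCAN1 and CAMK2D are higher with endothelin-1 than with sacubitrilat among the deep ones.

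Endothelin-1 against sacubitrilat set 2 groups of like depth side by side. RCAN1 was higher with endothelin-1 by 0.56 ± 0.13 on the log2 scale (± SE, 1.47-fold, 95% interval 0.29 to 0.83, edgeR adjusted p = 0.00304), and 3 of 3 endothelin-1 libraries lay above all sacubitrilat libraries. CAMK2D was higher by 0.43 ± 0.13 (1.34-fold, edgeR adjusted p = 0.0201), again without overlap. CALM2 (-0.17 ± 0.12) and CALM3 (-0.18 ± 0.11) were lower in 3 of 3 endothelin-1 libraries than in any sacubitrilat library, but their differences did not pass (edgeR adjusted p = 0.453 and 0.387). The share of all tested genes without overlap was not counted for this comparison, so these separations have no background beside them. Thus 2 of the 9 genes passed as higher and 0 as lower, where 6.44% of all tested genes passed as higher and 4.78% as lower, and the median log2 difference was 0.14 for the 9 genes and -0.01 for all.

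Some marker lists also differed between these 2 groups without overlap. Cardiomyocyte and smooth muscle sums were higher with endothelin-1, and epicardial (values above), endothelial (27.1 to 29.1 against 34.7 to 44.0 CPM) and neuronal sums (78.3 to 85.6 against 98.5 to 109.6 CPM) were higher with sacubitrilat. Their part in the RCAN1 and CAMK2D differences was not tested. The remaining 5 genes did not pass between the deep groups. Their 95% intervals on the log2 scale were -0.29 to 0.57 for RCAN2, -0.34 to 0.25 for PPP3CA, -0.18 to 0.48 for PPP3CB, -0.67 to 0.49 for PPP3R1 and -0.25 to 0.54 for NFATC3. The RCAN1 call held in every alternative that tested it, with adjusted p of 1.76e-04 to 0.0196 where the scaling, filter, tool or libraries changed. The CAMK2D call was lost with library totals as the sole scaling (0.31, adjusted p = 0.0607), without the filter (0.128), in DESeq2 (0.0863), with the replicate block (0.140) and without endothelin-1 replicate 1 or 3 (0.05004 and 0.123) or sacubitrilat replicate 3 (0.155), and the direction stayed. If the second description line were the true one, both signs would turn, with RCAN1 and CAMK2D higher under sacubitrilat.

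Of 61 other genes of the pathway, 43 were tested, and 8 were higher and 2 lower with endothelin-1 than with sacubitrilat. The shares of all tested genes were 6.44% and 4.78%. CAMK2B, the beta form of CaMKII, was higher by 1.05 ± 0.25 (edgeR adjusted p = 0.00386). ITPR1, a calcium release channel that opens to inositol trisphosphate, was higher by 0.81 ± 0.20 (edgeR adjusted p = 0.00476). MYOZ2, a Z-disc protein that binds calcineurin, was higher by 0.43 ± 0.11 and HDAC9, a class IIa histone deacetylase, by 1.10 ± 0.29 (edgeR adjusted p = 0.00797 and 0.00922). CAMK2B met the filter in the 3 endothelin-1 libraries, in 1 of vehicle and in 0 of sacubitrilat or both, so that it was tested because it was high with endothelin-1 and its direction here was favoured by the filter. DESeq2 did not call ITPR1 (0.0558) or HDAC9 (0.0583), and ITPR1 was lost without endothelin-1 replicate 1 (0.0812) or sacubitrilat replicate 3 (0.0710).

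Both compounds against vehicle was the other comparison of like totals, and none of the 9 genes passed in edgeR, in DESeq2 or in any other alternative. At an unadjusted p under 0.05 there was 1 of 9, CALM2, with a difference of -0.61 ± 0.28 (edgeR adjusted p = 0.393) and all 3 libraries of both below all vehicle libraries. The share of all tested genes separated like CALM2 was not counted here. RCAN1 differed by -0.05 ± 0.59, with a 95% interval of -1.25 to 1.14 so that a 2-fold difference in either direction was not detectable at this depth. Of all tested genes, 0.0803% passed as higher and 0.0982% as lower (20 genes, 1297 at an unadjusted p under 0.05, and 156 called by DESeq2). Among the 43 other pathway genes, 0 passed in edgeR in either direction, with 7 at an unadjusted p under 0.05. MYOZ2, named here after its values were seen, came closest at -2.41 ± 0.60 (edgeR adjusted p = 0.0724), and it was called as lower in DESeq2 (adjusted p = 0.0214), without the filter (0.0384), with a mean of at least 50 counts (0.0314), without the 2 libraries under 100000 counts (0.0155) and without vehicle replicate 2 (0.00414), where MEF2A was called as well (0.0340). MYOZ2 held 5 summed counts with both and 40 in vehicle, and MEF2A held 8 and 37.

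Endothelin-1 against vehicle asked what the hypertrophic peptide changed, across totals 8.75-fold apart. Of the 9 genes, RCAN1, RCAN2, CAMK2D, CALM2 and CALM3 passed as higher. Among 7 other tested genes of calcineurin and its regulators, 1 passed as higher and 0 as lower, beside 10.99% and 12.2% of all tested genes. Higher and lower were 2 and 0 of 9 tested NFAT factors and kinases, and 0 and 1 of 7 CaM kinases and inhibitors. They were 2 and 0 of 6 CaM kinase effectors, 1 and 1 of 4 other calmodulin-dependent enzymes, and 1 and 2 of 10 genes upstream. RCAN1 rose by 1.49 ± 0.33 on the log2 scale (2.81-fold, edgeR adjusted p = 8.11e-04) and CAMK2D by 0.61 ± 0.19 (1.53-fold, edgeR adjusted p = 0.0172). CALM3 rose by 0.56 ± 0.19 and CALM2 by 0.50 ± 0.19 (edgeR adjusted p = 0.0291 and 0.0476). RCAN2 rose by 1.92 ± 0.66 (edgeR adjusted p = 0.0315), and its summed counts of 99 against 3 gave a ratio of 3.77 with an exact 95% counting interval of 1.25 to 18.6. The filter favoured this direction for RCAN2, which met it in single-compound libraries alone.

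Calcineurin itself and NFATC3 did not pass. The catalytic subunit gene PPP3CB came closest at 1.10 ± 0.42 (edgeR adjusted p = 0.0515), while PPP3CA differed by 0.31 ± 0.32, PPP3R1 by 0.39 ± 0.67 and NFATC3 by -0.31 ± 0.37. So 5 of 9 genes passed as higher and 0 as lower, against 10.99% and 12.2% of all tested genes, with medians of 0.56 and 0.10. Fibroblast and smooth muscle markers were higher in the same libraries (values above), and their part in these calls was not tested. RCAN1 was called in every alternative that tested it except the exchange of labels (0.93, adjusted p = 0.0565), whereas thinning to 80000 counts per library left CAMK2D, CALM2 and CALM3 as the tested genes and called none of them.

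The other 4 calls depended on the tool, the settings or single libraries. RCAN2 was lost in DESeq2 (adjusted p = 0.0753), in limma-voom (0.117) and without the 2 libraries under 100000 counts (0.0822), CALM2 in limma-voom (0.0720), with the replicate block (0.130), in the fit of these groups alone (0.0843) and with library totals as the sole scaling (0.0919), and CALM3 with the block (0.0640), in the fit of these groups alone (0.0511) and without the 2 libraries (0.0584). A mean of at least 50 counts ended the calls of CAMK2D (0.119), CALM2 (0.404) and CALM3 (0.145). RCAN2 was also lost without vehicle replicate 1, 2 or 3 (adjusted p = 0.0682, 0.0884 and 0.0840) and CAMK2D without vehicle replicate 3 or endothelin-1 replicate 3 (0.106 and 0.0697). CALM3 was lost without vehicle replicate 2 or 3 (0.0890 and 0.0853) or any endothelin-1 library (0.0579 to 0.0638). CALM2 was lost without vehicle replicate 1 or 3 (0.160 and 0.0577), any endothelin-1 library (0.118 to 0.152) or any sacubitrilat library (0.0951 to 0.101). Leaving out a single-compound library also changed the set of tested genes, from 11203 to between 7228 and 7272. Losses in those fits therefore cannot be laid to the left-out library alone. Of the 9 genes, RCAN1 was thus the one whose call held without each of the 12 libraries.

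Around these genes, 7 of the 43 other tested pathway genes passed as higher and 4 as lower with endothelin-1, beside 10.99% and 12.2% of all tested genes. MYLK3, the cardiac myosin light chain kinase, fell by 1.01 on the log2 scale (SE 0.18, edgeR adjusted p = 8.30e-05), and ITPR3, a further inositol trisphosphate receptor, fell by 2.92 (edgeR adjusted p = 0.00374). ITPR3 met the filter in the 3 vehicle libraries and in 0 of the other 9, so that it was tested because it was high in vehicle. ORAI1, a pore of store-operated calcium entry, fell by 1.12 (edgeR adjusted p = 0.00487), a call lost without the filter (0.0683) or vehicle replicate 1 (0.208). MEF2A, a transcription factor of the CaMKII branch, rose by 0.91 ± 0.25 (edgeR adjusted p = 0.00577).

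Endothelin-1 plus sacubitrilat against endothelin-1 alone asked whether the neprilysin inhibitor altered that state, with totals 13.1-fold lower in the group of both. This comparison shares the endothelin-1 libraries with the previous one. RCAN1 was lower by -1.54 ± 0.40, CAMK2D by -1.21 ± 0.24, CALM2 by -1.11 ± 0.23 and CALM3 by -0.99 ± 0.24 (edgeR adjusted p = 0.00248, 1.77e-04, 2.84e-04 and 0.00137). RCAN2 was lower by -2.89 ± 0.96 (edgeR adjusted p = 0.0176), from 1 count against 99, a ratio of 0.132 with an exact 95% interval of 0.00331 to 0.752. That direction was again favoured by the filter, since RCAN2 was tested because it was high in the deep libraries. Every library of both lay below every endothelin-1 library in 6 of the 9 genes, these 5 and PPP3CB, as it did in 31.6% of all tested genes.

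PPP3CA (-0.25 ± 0.37), PPP3CB (-0.85 ± 0.47), PPP3R1 (0.76 ± 0.63) and NFATC3 (0.44 ± 0.43) did not pass. So 0 of 9 genes passed as higher and 5 as lower, against 16.6% and 17.8% of all tested genes, with medians of -0.99 and -0.23. RCAN2 was lost in DESeq2 (adjusted p = 0.0544), without the 2 libraries under 100000 counts (0.0517) and without replicate 1 or 2 of both (0.0559 and 0.10005), and thinning called none of the 3 genes it tested.

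Of the 43 other tested pathway genes, 3 were higher and 13 lower, with a median of -0.75, beside 16.6% and 17.8% of all tested genes. Among those lower, NFATC2 and CAMK2B met the filter in 3 endothelin-1 libraries and CAMKK2 in 2, all in 0 of both, which favoured this direction. NFATC2 and CAMK2B were at 0 counts with both. MYOZ2 was lower by -3.26 ± 0.45 (edgeR adjusted p = 5.17e-07), MEF2A by -2.54 ± 0.40 (edgeR adjusted p = 5.43e-06) and HDAC7, a class IIa histone deacetylase, by -2.57 ± 0.52 (edgeR adjusted p = 2.18e-04). Summed over the libraries of both, these 3 genes held 5, 8 and 4 counts. MYLK3 was higher by 1.33 ± 0.20 (edgeR adjusted p = 1.80e-06).

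**Figure D4:**
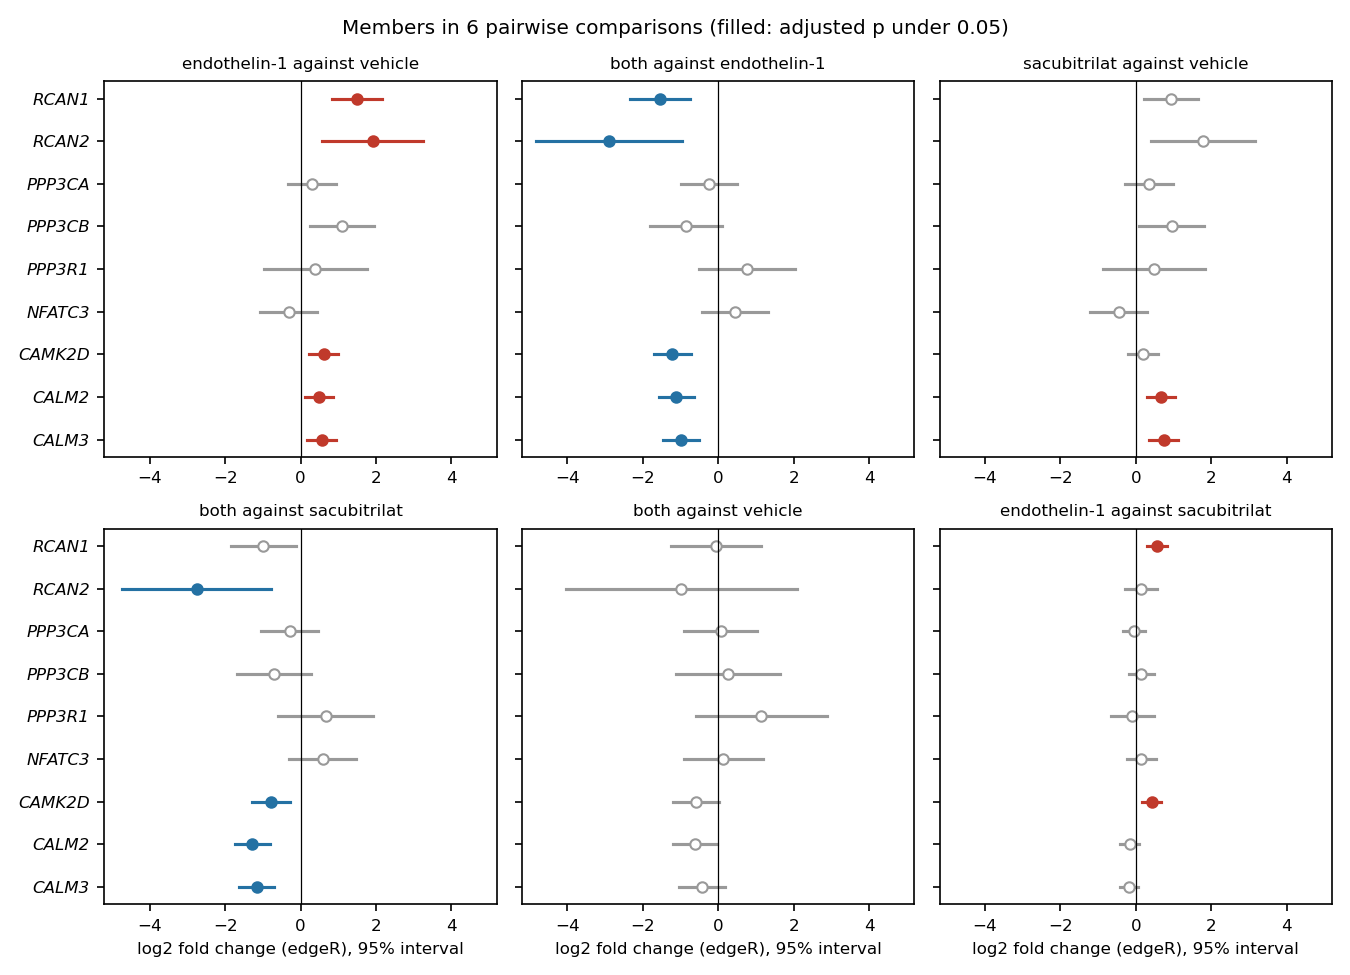
Log2 fold changes of the 9 genes with 95% intervals in 6 pairwise comparisons (edgeR), filled red or blue where the adjusted p was under 0.05 and open grey otherwise. Between groups of like totals, 0 genes passed for both against vehicle and 2, RCAN1 and CAMK2D, for endothelin-1 against sacubitrilat.

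Sacubitrilat against vehicle asked what the inhibitor did without added endothelin-1, across totals 8.06-fold apart and with the same vehicle libraries as above. CALM3 rose by 0.74 ± 0.19 and CALM2 by 0.66 ± 0.18 (edgeR adjusted p = 0.00461 and 0.00875). RCAN1 at 0.93 ± 0.35 and RCAN2 at 1.78 ± 0.68 did not pass (edgeR adjusted p = 0.0565 and 0.0570), although 3 of 3 sacubitrilat libraries lay above all vehicle libraries in both. How many of all tested genes separated in this way was not counted, and the filter favoured it for RCAN2. CAMK2D differed by 0.19 ± 0.20, PPP3CA by 0.35 ± 0.31, PPP3CB by 0.95 ± 0.42, PPP3R1 by 0.48 ± 0.67 and NFATC3 by -0.46 ± 0.38. So 2 of 9 genes passed as higher and 0 as lower, against 8.68% and 11.2% of all tested genes, with medians of 0.66 and 0.14.

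RCAN1 lay near the threshold here. It passed with another scaling (RLE, adjusted p = 0.0419), with library totals as the sole scaling (0.0309), in DESeq2 (0.0489), without the filter (0.0292) and without replicate 1 of both (0.0489). RCAN2 passed with library totals as the sole scaling (0.0445). CALM2 was lost with a mean of at least 50 counts (0.142) and without sacubitrilat replicate 3 (0.0655), and CAMK2D passed without vehicle replicate 1 (0.86, adjusted p = 0.0190). Of the 43 other tested pathway genes, 3 passed as higher and 4 as lower, beside 8.68% and 11.2% of all tested genes. GNAQ, the Gq alpha subunit, rose by 1.44 ± 0.30 and DAPK1, a calmodulin-dependent death kinase, by 1.90 ± 0.44 (edgeR adjusted p = 5.29e-04 and 0.00159), while MYLK3 fell by 1.02 and ITPR3 by 2.83 (edgeR adjusted p = 9.07e-05 and 0.00552). ITPR3 was tested because it was high in vehicle, so the filter favoured its fall.

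Both against sacubitrilat, at totals 12.03-fold apart, showed CALM2 lower by -1.27 ± 0.23 and CALM3 by -1.17 ± 0.23 (edgeR adjusted p = 3.90e-05 and 1.85e-04). CAMK2D was lower by -0.78 ± 0.25 and RCAN2 by -2.76 ± 0.98 (edgeR adjusted p = 0.0144 and 0.0265), the latter from 1 count against 90 (ratio 0.134, exact 95% interval 0.00335 to 0.764). For RCAN2 this direction was favoured by the filter. RCAN1 differed by -0.98 ± 0.43 and did not pass (edgeR adjusted p = 0.0679). So 0 of 9 genes passed as higher and 4 as lower, against 17.2% and 17.8% of all tested genes, with medians of -0.78 and -0.25.

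The RCAN2 call was lost in DESeq2 (adjusted p = 0.0717), in limma-voom (0.0554), without the 2 libraries under 100000 counts (0.0745) and without replicate 1 or 2 of both (0.0791 and 0.129). That of CAMK2D was lost with a mean of at least 50 counts (adjusted p = 0.201) and without sacubitrilat replicate 1 or 2 (0.0521 and 0.0556) or replicate 1 of both (0.0508). RCAN1 passed without the filter (0.00891), with library totals as the sole scaling (0.0479) and without vehicle replicate 1, 2 or 3 (0.0181, 0.0228 and 0.0402). Of the 43 other tested pathway genes, 4 were higher and 12 lower, beside 17.2% and 17.8% of all tested genes. Among those lower, NFATC2 and CAMKK2 met the filter in 3 sacubitrilat libraries and 0 of both, which favoured this direction. CAMK2B, lower as well, met it in 0 libraries of either group. NFATC2 and CAMK2B were at 0 counts with both. MYLK3 was higher by 1.35 ± 0.20, and MYOZ2 (-2.83 ± 0.48), MEF2A (-2.12 ± 0.43) and GNAQ (-1.80 ± 0.38) were lower (edgeR adjusted p = 1.66e-06, 1.90e-05, 1.92e-04 and 3.55e-04). With both, MYOZ2, MEF2A and GNAQ held 5, 8 and 11.25 summed counts.

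**Figure D5:**
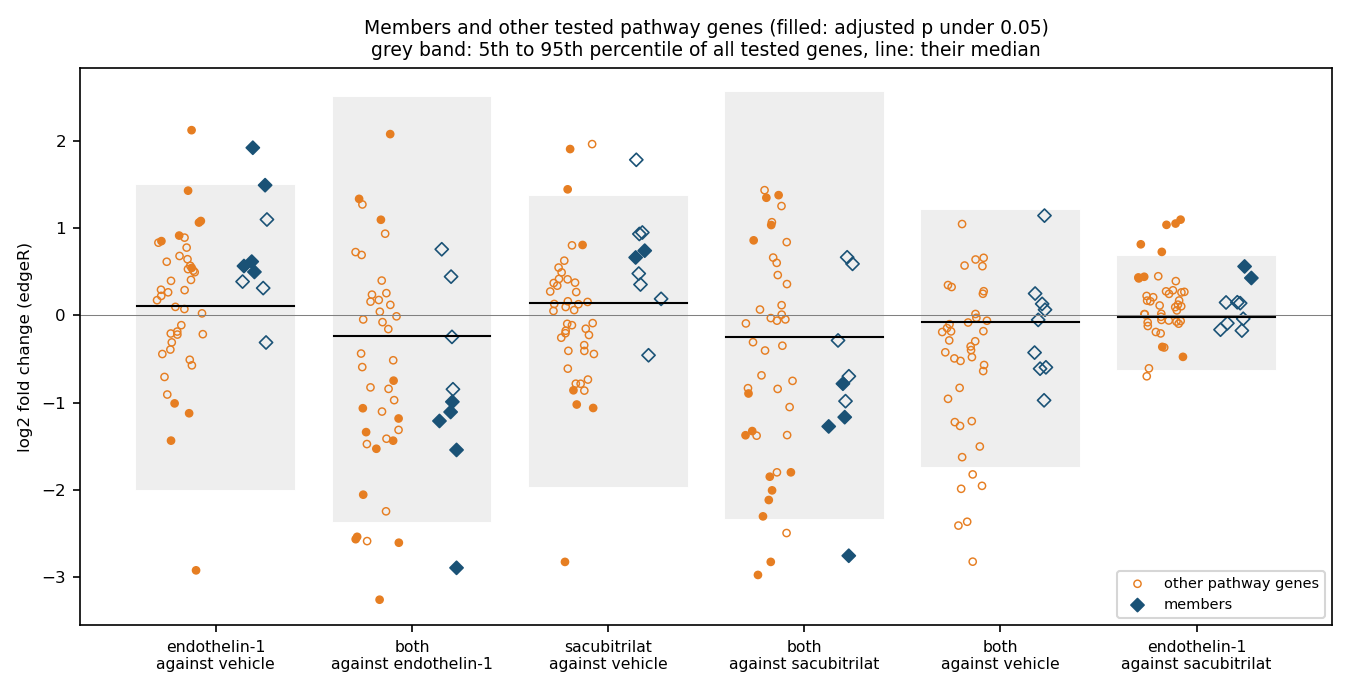
Log2 fold changes of the 9 genes (diamonds) and of other tested pathway genes (circles) in 6 comparisons, filled where the adjusted p was under 0.05, over the 5th to 95th percentile of all tested genes (grey) and their median (line). NFATC2 and CAMK2B, at 0 counts in every library of both, are left out where that group enters, and in those comparisons except both against vehicle most filled points lie below 0.

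The interaction term asked whether the 2 compounds together differed from the sum of their single effects on the log2 scale. It contrasts the 6 deep with the 6 shallow libraries exactly, so that it cannot be told apart from library total, and the exchange of labels leaves it unchanged. RCAN1 (-2.47 ± 0.53), RCAN2 (-4.67 ± 1.17), PPP3CB (-1.80 ± 0.64), CAMK2D (-1.40 ± 0.32), CALM2 (-1.77 ± 0.30) and CALM3 (-1.73 ± 0.30) passed as lower. The filter favoured that direction for RCAN2. PPP3CA (-0.60 ± 0.49), PPP3R1 (0.28 ± 0.94) and NFATC3 (0.90 ± 0.57) did not pass. So 0 of 9 genes passed as higher and 6 as lower, against 20.1% and 25.96% of all tested genes, with medians of -1.73 and -0.43.

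Without replicate 3 of both, PPP3CB no longer passed (adjusted p = 0.0595). Of the 43 other tested pathway genes, 6 were higher and 13 lower, beside 20.1% and 25.96% of all tested genes. NFATC2 and CAMK2B met the filter in 3 endothelin-1 libraries, 1 of vehicle and 0 of both, which favoured a negative value for them. MYLK3 was higher by 2.36 ± 0.27, and MYOZ2 (-3.68 ± 0.54), MEF2A (-3.03 ± 0.49) and GNAQ (-2.88 ± 0.50) were lower (edgeR adjusted p = 5.20e-09, 6.93e-07, 4.06e-06 and 1.12e-05). The last 3 rested on the few counts with both given above.

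The tested genes whose pattern over the 12 libraries was most like that of RCAN1 were FBH1 (r = 0.991), SLIT3 (0.988), TMEM134 (0.984), NUDT4B (0.983) and JAG1 (0.983), by Pearson correlation of log2 CPM among 6920 genes with a mean of at least 20 CPM. JAG1, a Notch ligand, was at 145 ± 17.8 CPM under endothelin-1, 83.2 ± 9.21 under sacubitrilat, 44.0 ± 11.5 under both and 30.7 ± 28.7 in vehicle (SD, n = 3). SLIT3, a secreted guidance ligand, was at 168 ± 9.71, 140.2 ± 5.05, 94.2 ± 2.35 and 73.2 ± 42.1 CPM in that order. These libraries share group and depth, and the r of the 5 genes with the log2 total was 0.64 to 0.80. RCAN1 was at 0 counts in vehicle replicate 2, the shallowest library (80844 counts). The lowest vehicle values were 0 CPM for JAG1 and TMEM134, 4.08 for NUDT4B, 12.4 for FBH1 and 24.7 for SLIT3. How far such a single low library carries these r values was not tested. Among the other 8 genes, likeness to RCAN1 ran from 0.74 for RCAN2, 0.70 for PPP3CB, 0.69 for CALM3 and 0.62 for CAMK2D down to 0.22 for CALM2, -0.11 for PPP3CA, -0.16 for PPP3R1 and -0.33 for NFATC3.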

How the data were processed

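RNA with a poly(A) tail was primed with barcoded poly(dT) that holds a molecular identifier, and the libraries were stranded and counted transcripts at their 3′ ends, per the labels' protocols. The submitters' processing notes name fastp 0.24.0, featureCounts and GRCh38. Not given in the sources used here are the aligner, the annotation, the strand setting of the count, the treatment of reads that map to several places and whether identifiers were used.

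The deposited estimated counts need not be whole, and they were rounded for the tests. The deposited CPM equalled the count as a share of the library total (largest difference 1.46e-11). CPM from 3′ ends carries no length correction, so levels were not compared between genes. Of 78986 features, 92 spike-ins at 0 were left out.

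All 12 libraries entered 1 edgeR 4.0.16 quasi-likelihood model (R 4.3.3, TMM, filterByExpr), with Benjamini-Hochberg adjustment over 11203 genes and a threshold of 0.05. The script was tested on simulated data. Alternatives used DESeq2 1.42.0, limma 3.58.1 (voom), RLE scaling, library totals only (chosen after seeing the data), other filters, thinning to 80000 counts, a replicate block, compared groups only, left-out libraries and exchanged labels.

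The 9 genes, the pathway and marker lists and the rules were chosen with earlier results of these data known. Named other pathway genes were up to 4 called genes per comparison in order of adjusted p, and 1 gene of the pathway list is not reported here. A count of 0 allows up to 3 counts, which is 1.54 to 2.37 CPM in single-compound libraries and 9.47 to 37.1 CPM in vehicle and both. Plotted bars are exact 2-sided intervals, which reach above this floor at a count of 0. Both cover counting error only.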

Additional observations from a re-analysis of the deposited data

Results flagged for a closer look

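The interaction term passed in 6 of the 9 genes, that is, the values with both compounds differed from the sum of the single-compound differences on the log2 scale. The log2 values were -2.47 for RCAN1, -4.67 for RCAN2, -1.80 for PPP3CB, -1.40 for CAMK2D, -1.77 for CALM2 and -1.73 for CALM3 (edgeR adjusted p = 2.49e-04, 0.00131, 0.0200, 4.58e-04, 6.93e-06 and 1.58e-05, with 3 libraries per group). Of all tested genes, 25.96% passed in the same direction. RCAN2 met the filter in the deep libraries alone, which favoured its negative value. The term sets the 6 libraries of high total against the 6 of low total, and the part of the totals in it cannot be told apart from that of the compounds.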

How the results depend on the processing

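Depth limits these genes in vehicle and both, where RCAN1 rested on 0 to 10 counts per library. Counts of the 9 genes that passed moved as follows. For endothelin-1 against vehicle, 5 became 3 with limma-voom, the replicate block, the compared groups only or without the 2 libraries under 100000 counts, 2 with exchanged labels, 1 with a mean of at least 50 counts (5 genes tested) and 0 with thinning (3 tested), and leaving out 1 library gave 1 to 6. For both against endothelin-1, 5 became 0 with thinning. For sacubitrilat against vehicle, 2 became 1 with a mean of at least 50 counts, 1 with thinning, 4 with library totals only and 5 with exchanged labels, and leaving out 1 library gave 1 to 3. For both against sacubitrilat, 4 became 2 with a mean of at least 50 counts and 2 with thinning, and leaving out 1 library gave 2 to 5. For endothelin-1 against sacubitrilat, 2 became 1 without a filter, with DESeq2, with the replicate block or with library totals only and 0 with thinning, and leaving out 1 library gave 1 to 2. For the interaction, 6 became 1 with thinning. For both against vehicle, 0 stayed 0 in every alternative. Thinning leaves fewer genes tested (1830) and fewer counts per gene, and leaving out a single-compound library left 7 of the 9 tested; other causes were not tested. CALM2 for endothelin-1 against vehicle reversed to -0.14 with thinning.

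Same-numbered cultures did not visibly deviate together (r of -0.146 to 0.0396 over 18 pairs, 0 above 0.1). Most of these pairs include a shallow library of vehicle or both, where counting error alone keeps r low. Whether the replicate numbers pair the samples therefore cannot be decided from these values. The replicate block, given as an alternative setting, left 3 of 5 calls for endothelin-1 against vehicle and 1 of 2 for endothelin-1 against sacubitrilat. Of 1268 alternative values for single genes among the 9, 1144 kept direction and side of the threshold, 68 lost a call, 22 gained one, 33 changed sign with no call and 1 reversed.

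Counts over all genes moved by more than 1.5 times with a mean of at least 50 counts or thinning: from 2596 to 992 and 458 for endothelin-1 against vehicle, 3854 to 1349 and 800 for both against endothelin-1, 2228 to 792 and 438 for sacubitrilat against vehicle (1450 without vehicle replicate 3), 3925 to 1351 and 803 for both against sacubitrilat, and 5163 to 1587 and 945 for the interaction. For endothelin-1 against sacubitrilat, 1257 became 638 and 10, 758 in DESeq2, 2024 with compared groups only, 1898 without the 2 shallowest libraries and 681 to 796 without a single-compound library. For both against vehicle, 20 became 51 and 5, 62 without a filter, 156 in DESeq2, 10 with the block, 3 with compared groups only, 126 without the 2 shallowest libraries and 6 to 221 without 1 library. Library totals only moved the median of all genes for endothelin-1 against sacubitrilat from -0.01 to -0.13.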
